A study of Saccharomyces cerevisiae with 4 samples.

Results

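Transcripts of 6 genes that encode subunits of the RSC chromatin remodeler were followed in wild-type budding yeast and in 3 strains with lesions of the nuclear RNA decay machinery. The genes were taken as every entry of the deposited gene tables whose symbol is SFH1, STH1 or RSC followed by digits and that holds values. They were STH1, SFH1, RSC6, RSC9, RSC4 and RSC3, or 6 of the 130 distinct sets of values in the tables. All 6 stood in 1 of the 16 Gene Ontology (GO) terms tabulated by the authors, the term for the G2/M transition of the mitotic cell cycle, which lists 29 genes, 25 of them with values. Of a list of 17 RSC subunit genes, these 6 had values. None of 9 SWI/SNF subunit genes or 6 genes of other remodelers had values, and those genes are not analysed here.

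RSC is an ATP-dependent machine that slides and ejects nucleosomes. In Saccharomyces cerevisiae it is abundant, it is needed for viability, and it keeps the promoters of many genes clear of nucleosomes. It is also required for passage through G2/M. Sth1 is the ATPase motor, a relative of Snf2 of the SWI/SNF complex. Sfh1 and Rsc6 are relatives of the SWI/SNF subunits Snf5 and Snf12. Rsc9 is a subunit with an ARID domain, Rsc4 carries bromodomains that bind acetylated histone H3, and Rsc3 is a zinc cluster protein that binds DNA.

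Each genotype was sequenced as 1 library of poly(A)-selected RNA. Strain BJ2664 served as WT, and the mutants were T208 with the mtr3-1 allele, T188 with the mtr4-1 allele and T186 with the dis3mtr allele, which also goes by the names rrp44-1 and mtr17-1. MTR3 encodes a subunit of the ring of the RNA exosome, MTR4 an RNA helicase that delivers nuclear substrates to it, and DIS3 its catalytic subunit. All 4 cultures, WT included, were grown in rich medium (YPD) at 30 °C until the optical density (OD600) reached 0.4, and then spent 2 h at 37 °C. Every value therefore comes from heat-shifted cells, and no unshifted culture is analysed here. Since no genotypes shared a strain, background and mutation cannot be told apart.

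With 1 library per genotype there is no spread between replicates, so no difference below has an error or a test. The values are the authors' normalized values. Their unit and the depth behind them were not stated, and they are therefore compared between libraries for the same gene and never between genes. Following the authors, a gene is called high where it is at least 15% above WT and low where it is at least 15% below WT. Over the 130 features the median was at 99.2% of WT in mtr3-1, 81.5% in mtr4-1 and 112% in dis3mtr, log2 shifts of -0.01, -0.30 and 0.17. Values after division by these medians are given where they move a gene across a threshold. The transcripts of the mutated genes themselves are not analysed here.

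By these thresholds the RSC genes did not share a pattern. RSC6 and SFH1 were low in mtr3-1 and mtr4-1 and high in dis3mtr, STH1 was low in mtr3-1 and mtr4-1, RSC4 was low in mtr4-1 and dis3mtr, RSC3 was low in dis3mtr, and RSC9 was high in dis3mtr. All other values lay between the thresholds. Of these 18 calls, 12 were kept after division by the library medians. A high call in a mutant together with a low call in another was met by 2 of the 6 genes, against 20.0% of all features. In mtr4-1 all 6 genes lay below their WT value, but 73.8% of all features did so too. In mtr3-1, 5 of the 6 lay below WT, against 50.8% of all features, and in dis3mtr 3 of the 6 did, against 36.2%.

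**Figure D1:**
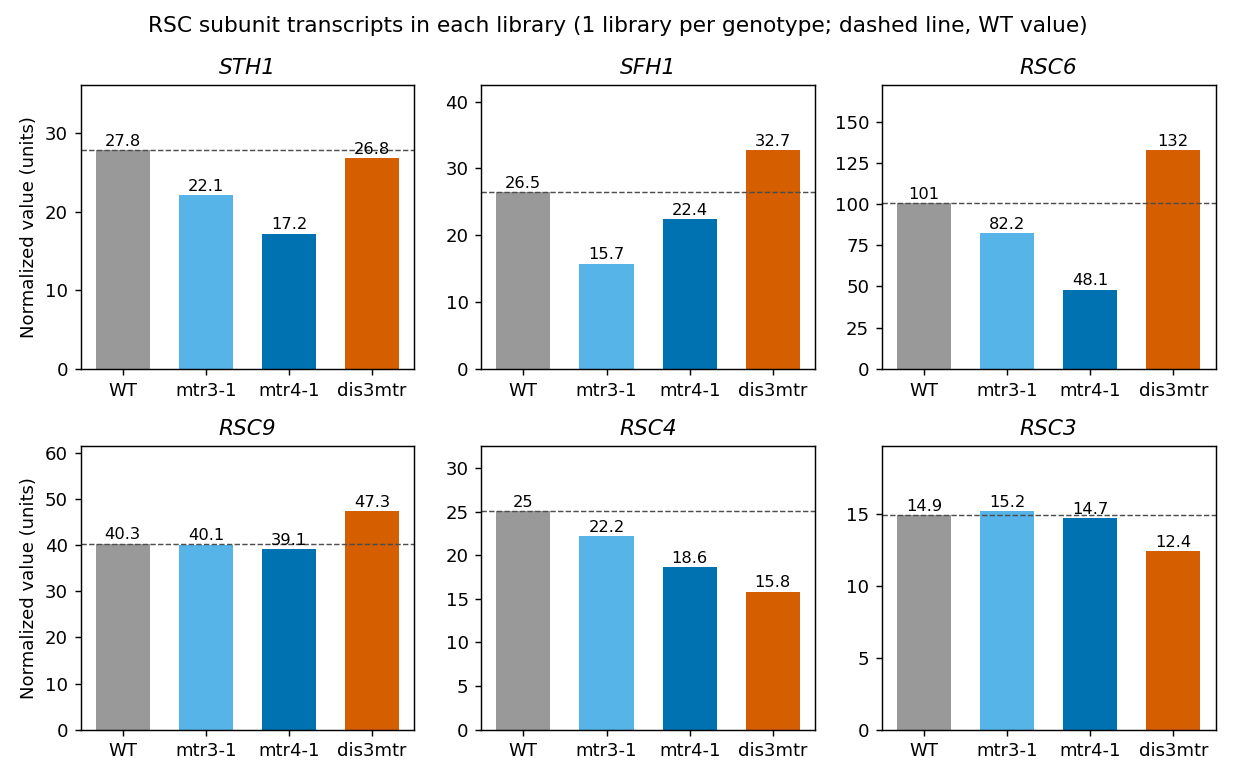
Normalized value (y axis, the authors' units, from 0) of each RSC gene in the 4 libraries (x axis), with 1 bar per library and a dashed line at the WT value. RSC6, SFH1 and RSC9 had their highest bar in dis3mtr, RSC4 and RSC3 their lowest, and STH1 its lowest in mtr4-1.

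STH1, the ATPase gene (YIL126W, chromosome 9, 117 to 122 kb on sacCer2), had values of 27.8 units in WT, 22.1 in mtr3-1, 17.2 in mtr4-1 and 26.8 in dis3mtr. WT and dis3mtr were close, and mtr4-1 was the lowest library. The percents of WT were 79.4%, 62.0% and 96.4% in mtr3-1, mtr4-1 and dis3mtr. With the library medians divided out STH1 was at 80.0%, 76.0% and 85.7%, so it kept its calls. Its coding region is the longest of the 6, with 4080 bases in the R64 annotation.

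SFH1, which encodes the Snf5-like core subunit (YLR321C, chromosome 12, 776 to 777 kb), had values of 26.5 units in WT, 15.7 in mtr3-1, 22.4 in mtr4-1 and 32.7 in dis3mtr. The mtr3-1 library was the lowest and the dis3mtr library the highest. SFH1 was at 59.3% of WT in mtr3-1, the lowest of the 6 genes there and the 13th lowest of the 130 features. In mtr4-1 it was at 84.4%, just under the threshold (a pseudocount of 1 unit ended that call), and in dis3mtr at 123%. After division by the library medians the last 2 became 104% and 109.7%, between the thresholds, while mtr3-1 remained low at 59.8%.

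RSC6, which encodes the Snf12-like subunit (YCR052W, chromosome 3, 214 to 216 kb), had values of 100.5 units in WT, 82.2 in mtr3-1, 48.1 in mtr4-1 and 132 in dis3mtr. Its highest library stood 2.76-fold above its lowest, the widest span of the 6 genes. RSC6 was at 47.8% of WT in mtr4-1, the 6th lowest of the 130 features. It was at 81.8% in mtr3-1 and at 132% in dis3mtr. Divided by the library medians, these were 58.7%, 82.4% and 117%, so each call was kept.

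RSC9, the gene of the ARID-domain subunit (YML127W, chromosome 13, 17 to 18 kb), had values of 40.3 units in WT, 40.1 in mtr3-1, 39.1 in mtr4-1 and 47.3 in dis3mtr. The first 3 libraries were nearly level and dis3mtr was somewhat higher. Its span over the 4 libraries was 1.21-fold, the 5th smallest of the 130 features. RSC9 was at 99.4%, 96.9% and 117% of WT in mtr3-1, mtr4-1 and dis3mtr. The high call in dis3mtr did not hold after division, at 104%, and RSC9 was then high in mtr4-1, at 119%.

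RSC4, the gene of the bromodomain subunit (YKR008W, 451 to 453 kb), had values of 25.0 units in WT, 22.2 in mtr3-1, 18.6 in mtr4-1 and 15.8 in dis3mtr. WT was the highest library and dis3mtr the lowest. The percents of WT were 88.7%, 74.4% and 63.1% in mtr3-1, mtr4-1 and dis3mtr. In dis3mtr RSC4 was the lowest of the 6 genes and the 14th lowest of all features. After division it was at 91.3% in mtr4-1, between the thresholds, and at 56.1% in dis3mtr. The authors' table lists RSC4 on chromosome 9, whereas the R64 annotation places YKR008W on chromosome 11 at a matching position.

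RSC3, the gene of the zinc cluster protein (YDR303C, chromosome 4, 1068 to 1071 kb), had values of 14.9 units in WT, 15.2 in mtr3-1, 14.7 in mtr4-1 and 12.4 in dis3mtr. It was nearly level in WT, mtr3-1 and mtr4-1 and lower in dis3mtr, with a span of 1.22-fold, the 7th smallest of the 130 features. RSC3 was at 102%, 98.7% and 83.3% of WT in mtr3-1, mtr4-1 and dis3mtr. After division it was at 121% in mtr4-1, a high call that the deposited values do not give, and at 74.1% in dis3mtr.

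In mtr3-1, 3 of the 6 genes were low (SFH1, STH1 and RSC6) and none was high. Among all 130 features 33.1% were low and 27.7% high. The median of the 6 was 85.2% of WT, against 99.2% over all features, and they ranged from 59.3% to 102%. In the same GO term the other 19 genes with values had a median of 98.2%, with 6 low and 4 high. RSC9, RSC4 and RSC3 lay between the thresholds. At a 1.5-fold threshold SFH1 was the member still low, with no share of all features given at that threshold.

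In mtr4-1, 4 of the 6 genes were low (RSC6, STH1, RSC4 and SFH1) and none was high. The background shares were 57.7% low and 14.6% high, so most listed genes were low in that library. The median of the 6 was 79.4% of WT, close to the 81.5% over all features. The other 19 genes of the term had a median of 80.6%, with 11 low and 3 high. After division by the library median RSC6 and STH1 were low and RSC3 and RSC9 high. Over all 130 features 44 were then low and 43 high, so the 2 low and 2 high members lay near the background share. The median of the 6 after division was 97.5%. By their percents RSC6 was the 6th lowest and STH1 the 22nd lowest of the 130 features.

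In dis3mtr, 3 of the 6 genes were high (RSC6, SFH1 and RSC9) and 2 were low (RSC4 and RSC3). The background shares were 46.9% high and 23.1% low. The median of the 6 was 107% of WT, against 112% over all features, and the other 19 genes of the term had a median of 108%, with 8 high and 3 low. After division by the library median, RSC6 alone was high and RSC4 and RSC3 remained low. Over all 130 features 47 were then high and 41 low. The median of the 6 after division was 95.1% of WT. Leaving out 1 gene at a time gave medians from 96.4% to 117%, so the side of WT on which the median fell depended on the scaling and on single members. None of the 6 was 1.5-fold above WT in dis3mtr, and RSC4 was the member more than 1.5-fold below it. The share of all features at 1.5-fold is not given, so this describes the 6 genes only.

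**Figure D2:**
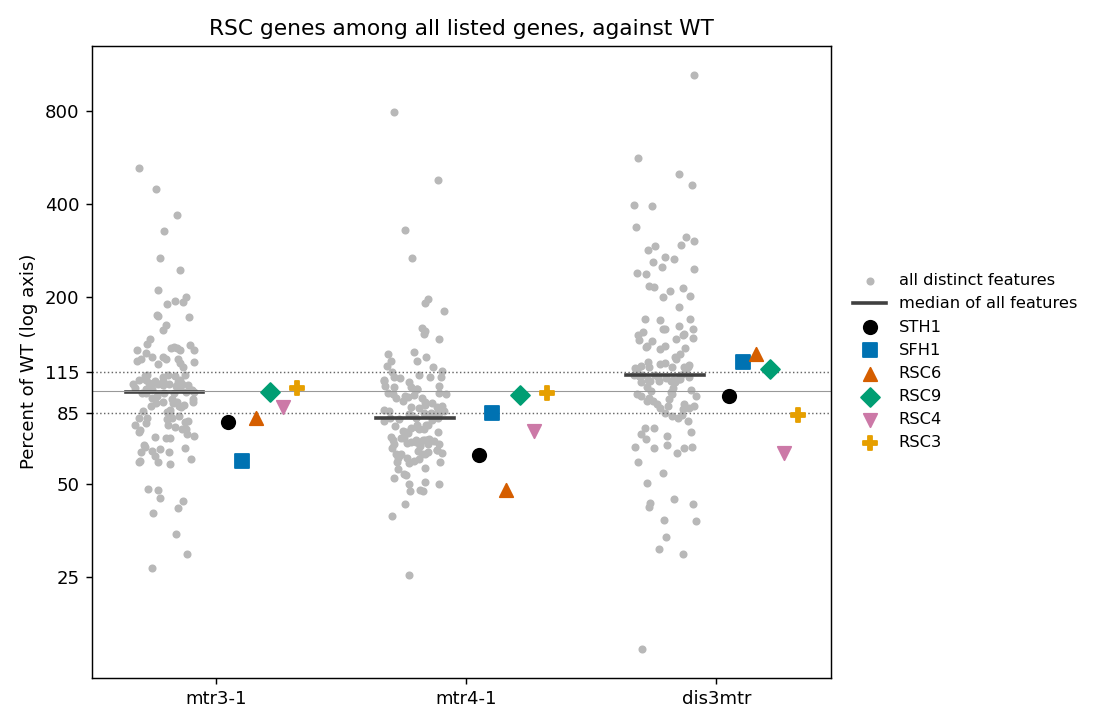
Percent of WT (y axis, log scale) in each mutant (x axis) for all 130 features (grey points, with a bar at their median) and the 6 RSC genes (coloured symbols); dotted lines mark 15% above and 15% below WT. The RSC genes sit inside the grey cloud in all 3 mutants, with RSC6 at 47.8% in mtr4-1 and 132% in dis3mtr.

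The SD of the log2 percents of WT across the 6 genes was 0.28 in mtr3-1, 0.41 in mtr4-1 and 0.40 in dis3mtr, against 0.67, 0.63 and 0.90 over all features. For ratios between mutants the SDs lay closer together, at 0.58 and 0.62 for dis3mtr over mtr3-1, 0.64 and 0.65 for dis3mtr over mtr4-1 and 0.42 and 0.51 for mtr3-1 over mtr4-1. No difference in spread was tested. In dis3mtr the highest member stood 2.09-fold above the lowest, with RSC6 the 47th highest and RSC4 the 14th lowest of the 130 features. These are spreads between genes and not errors of measurement.

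Direct ratios between mutants leave out the WT library that all of the comparisons above share. RSC6 was 2.76-fold as high in dis3mtr as in mtr4-1, 1.61-fold as high in dis3mtr as in mtr3-1 and 1.71-fold as high in mtr3-1 as in mtr4-1. Divided by the library medians, which are themselves taken against WT, these ratios were 2.00, 1.42 and 1.40. Divided by the median ratio of each pair of mutants, which does not use WT, they were 1.97, 1.31 and 1.47. SFH1 was 2.08-fold as high in dis3mtr as in mtr3-1 and 1.46-fold as high as in mtr4-1. After division by the library medians the first was 1.83 and the second 1.06, and by the pair medians 1.69 and 1.04. By either division SFH1 differed little between dis3mtr and mtr4-1. In contrast to RSC6, SFH1 was lower in mtr3-1 than in mtr4-1, with a ratio of 0.70. The Snf5-like and Snf12-like subunit genes thus shared their high library but not their low one.

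The dis3mtr library was below the other mutants for RSC4 and RSC3. RSC4 had ratios of 0.71 to mtr3-1 and 0.85 to mtr4-1, and RSC3 had ratios of 0.82 and 0.84. With a pseudocount of 1 unit neither was 15% lower than in mtr4-1. STH1 had ratios of 1.21 and 1.56, and RSC9 had ratios of 1.18 and 1.21. After division by the library medians STH1 was at 1.07 and 1.13, within 15%. RSC9 was then at 1.04 and 0.88, so that it turned to the lower side against mtr4-1. Divided instead by the median ratio of dis3mtr to mtr3-1, STH1 and RSC9 were at 0.99 and 0.96 against mtr3-1. Set against mtr3-1, 4 of the 6 genes were at least 15% higher in dis3mtr and 2 at least 15% lower, with background shares of 55.4% and 19.2%. Once divided, 2 (SFH1 and RSC6) were higher and 2 lower. Against mtr4-1 the counts were again 4 and 2, with background shares of 74.6% and 11.5%, but after division RSC6 was the 1 gene still higher, with 2 lower. In mtr3-1 against mtr4-1, 3 of the 6 (RSC6, STH1 and RSC4) were at least 15% higher and SFH1 at least 15% lower, with background shares of 53.8% and 13.8%. After division by the library medians RSC6 was the 1 gene higher, and 3 were lower (SFH1, RSC9 and RSC3). RSC9 and RSC3 were then just under the threshold, at 0.843 and 0.847. Divided instead by the median ratio of mtr3-1 to mtr4-1 they were at 0.880 and 0.885, and SFH1 was the 1 gene lower. The background shares for these pairs are those of the values as deposited, and none is given after division.

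The median ratios of the 6 genes were 1.20 for dis3mtr over mtr3-1, 1.34 for dis3mtr over mtr4-1 and 1.11 for mtr3-1 over mtr4-1. Over all features they were 1.23, 1.40 and 1.17 in the same order. The medians of the list lay close to those of all features. The members differed among themselves, but the SDs of their log2 ratios were no larger than those over all features.

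**Figure D3:**
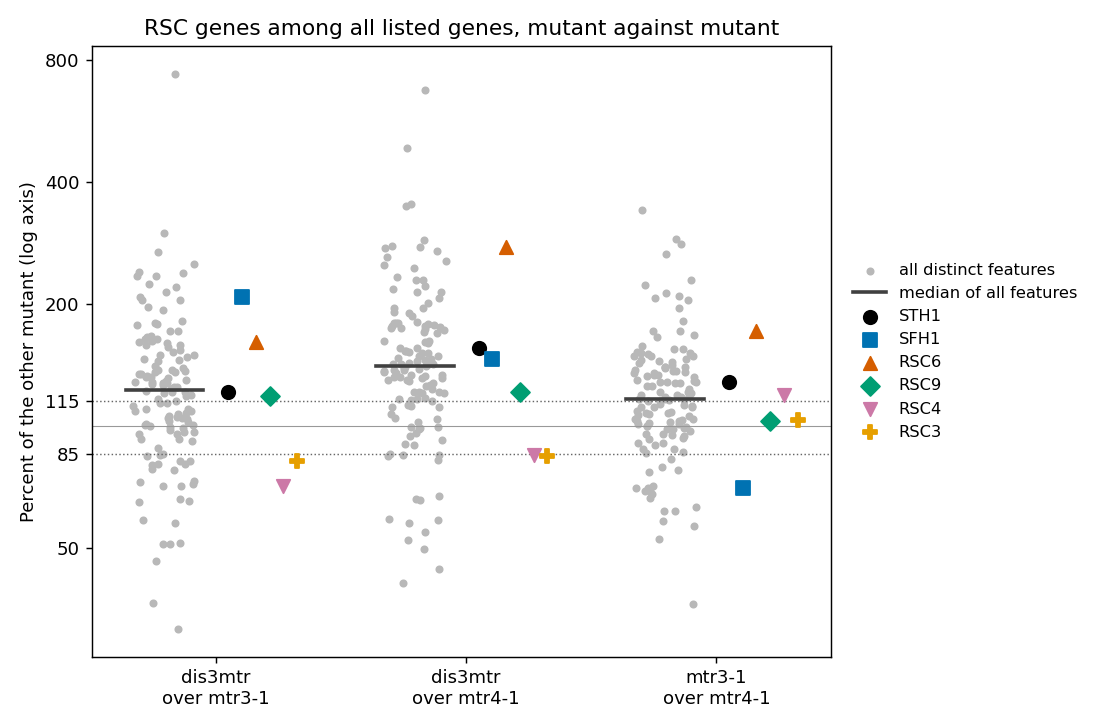
Value in a mutant as a percent of the value in another (y axis, log scale) for 3 pairs of mutants (x axis), with all 130 features in grey, their median as a bar and the 6 RSC genes as coloured symbols. RSC6 lies high in all 3 pairs, SFH1 changes sides between the pairs, and RSC4 and RSC3 lie at or below the lower dotted line (15% lower) in both pairs that involve dis3mtr.

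Likeness between genes was measured as the distance between log2 values over the 4 libraries, each gene centred on its own mean. Within the complex RSC3 and RSC4 were the nearest pair, at 0.34, and RSC4 and RSC6 the farthest, at 1.23. RSC4 was the 5th nearest of the 129 other features to RSC3. RSC6 and SFH1, which were both high in dis3mtr, were 0.94 apart, and SFH1 was the 65th nearest feature to RSC6. The median distance from RSC6 to the other features was also 0.94.

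Outside the complex, the genes nearest to STH1 were BIR1, of the chromosomal passenger complex, at 0.12, CDC4, an F-box protein of the SCF ubiquitin ligase, at 0.13, and CCT2, a subunit of the chaperonin, at 0.15. BIR1 was at 78.4%, 59.0% and 103% of WT in mtr3-1, mtr4-1 and dis3mtr. RSC6 was nearest to CDH1, an activator of the anaphase-promoting complex, at 0.24, to MND2, a subunit of that complex, at 0.30 and to CDC24, an exchange factor of Cdc42, at 0.38. CDH1 was at 84.8%, 59.3% and 145% of WT, the same order of libraries as RSC6.

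SFH1 was nearest to JNM1, a dynactin subunit, at 0.30, then to SHE1, a microtubule-associated protein, and PAC10, a prefoldin subunit, at 0.32 and 0.34. RSC9 was nearest to SGO1, the shugoshin of centromeres, at 0.06, to the B-type cyclin CLB4 at 0.07 and to CDC26 (YFR036W), a subunit of the anaphase-promoting complex, at 0.13. RSC4 was nearest to ULP1, a SUMO protease, at 0.14, to the kinase gene SKM1 at 0.17 and to TVP38 at 0.21. RSC3 was nearest to AMN1, which acts in mitotic exit, at 0.18, to APC2, a subunit of the anaphase-promoting complex, at 0.25 and to TVP38 at 0.27. A small distance did not mean a shared call. In dis3mtr RSC3 was at 83.3% of WT, and AMN1, APC2 and TVP38 were at 87.1%, 102% and 71.6%. With 4 libraries, such likeness describes these values only.

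Histone H3, a part of the nucleosome on which RSC acts, had 2 genes with values, out of 11 histone genes looked for. HHT1 had values of 1506 units in WT, 402 in mtr3-1, 1108 in mtr4-1 and 650 in dis3mtr. HHT2 had values of 1417, 421, 800.4 and 438 units in the same order. Both were lower in every mutant than in WT, with mtr4-1 the nearest to WT. No RSC gene had that order of libraries, but STH1 and RSC4 were also lower in every mutant than in WT. In dis3mtr, where the H3 genes were at 43.2% and 30.9% of WT, the lowest RSC gene was at 63.1%. In mtr3-1 HHT1 and HHT2 were at 26.7% and 29.7%, and the lowest RSC gene at 59.3%. In mtr4-1 they were at 73.6% and 56.5%, and RSC6 lay below both at 47.8%. In a culture, fewer cells that express a gene and less of its RNA per cell cannot be told apart, and the cell cycle stage of these cultures was not stated.

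In their R64 coding regions the 6 genes share no exact stretch as long as a read. Stretches with mismatches were not looked for. In the R64 genome every window of 36 bases, the read length, and of 33 bases, the read without its barcode, within their coding regions occurred at a single place (100% of the windows of each gene). Each coding region was in 1 part, without an intron, and none overlapped another gene of that annotation. The nearest neighbour beyond the 3' end lay between 250 bases (ERG13, beyond RSC9) and 617 bases away (KGD1, beyond STH1). Beyond RSC9, RSC4, RSC3 and SFH1 the neighbour on that side is encoded on the opposite strand. Whether the libraries kept strand, and how much of the flanking region the authors counted, was not stated. Coding lengths ran from 1281 bases for SFH1 to 4080 for STH1. A relation of length to the percents of WT was not tested.

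**Figure D4:**
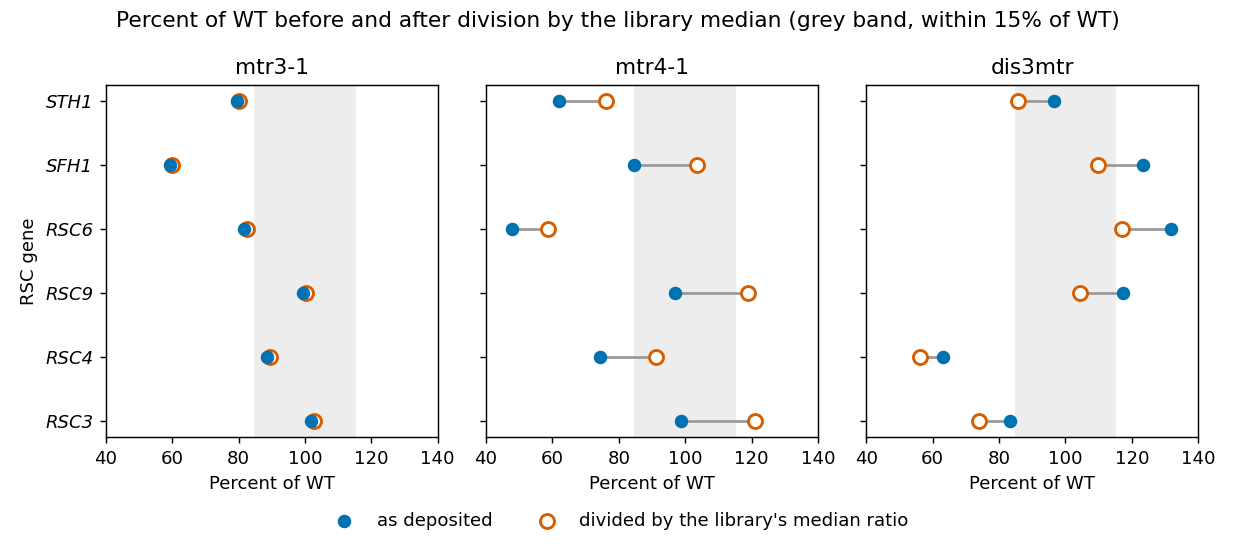
Percent of WT (x axis) of each RSC gene (y axis) in the 3 mutants, as deposited (filled blue) and after division by the library's median ratio to WT over 130 features (open orange); the grey band spans 15% on either side of WT. The points barely move in mtr3-1, move to the right in mtr4-1 and to the left in dis3mtr, and RSC6 stays outside the band in all 3 panels.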

How the data were processed

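Poly(A)-selected RNA of 4 yeast cultures was sequenced for 36 cycles in a single lane with barcodes of 3 bases, per the labels' protocols. Bowtie and the genome build sacCer2 are named in the submitters' processing notes. No Bowtie version, counting method or depth per library was stated. The deposited files hold, per the file headers, a normalized value per gene and library, used here as a signal and, for the column dis3mtr, recorded as a score because other cells of that column are text. Whole-read steps were looked for in the values and not found. Entries (190, of which 175 with values) were read with Python 3.11.15 and pandas 2.3.3, identical sets of values were counted once, and percents of WT were computed as ratios. All 6 RSC genes had values and no filter on low values was applied. Identifiers, coding lengths and neighbours came from the R64 annotation, matched by identifier. The deposited kb positions on sacCer2 were compared with R64 only to check identity, within 2 kb. R64 differs from the authors' build, so no sequence is printed. Every RSC gene is named, with the 3 nearest features of each. The counting was tested on simulated data. Alternatives were division by library medians, a pseudocount of 1 unit, a minimum WT value of 5 units and a certain identity. A 1.5-fold threshold, means and leaving out genes were also used. Division by the median ratio of a pair of mutants was added after seeing the data. The members and lists were chosen with earlier results of these data known.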

Additional observations from a re-analysis of the deposited data

Results flagged for a closer look

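RSC6 and SFH1 belonged to 26 of the 130 features (20.0%) that stood at least 15% above WT in a mutant and at least 15% below WT in another. RSC6 was high in dis3mtr and low in the other mutants, with ratios of 1.61 (dis3mtr over mtr3-1) and 2.76 (dis3mtr over mtr4-1). Divided by the library medians, these were 1.42 and 2.00. SFH1 showed the same calls, with ratios of 2.08 and 1.46, which became 1.83 and 1.06 after division, so its difference between dis3mtr and mtr4-1 rested on the scaling. With 1 library per genotype these differences were not tested. After division by the library medians 16 features (12.3%) met the condition, among them RSC6, and RSC3 in place of SFH1.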

How the results depend on the processing

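Of 84 alternative values of the counts, medians and ratios over the 6 genes, 60 stayed within the tolerance. The tolerance was a factor of 1.5 for counts and 15% for the others. Among the 60 were 12 values with the minimum WT value and 9 that required a certain identity. Neither setting left out any of the 6 genes, so these values could not move. The tolerance replaces a spread between replicates, which does not exist here. Division by the library medians moved the counts in mtr4-1 to 2 high and 2 low, its median to 97.5%, and the high count in dis3mtr to 1. Over all 130 features division gave 43 high and 44 low in mtr4-1, and 47 high and 41 low in dis3mtr. For the 6 genes, division moved the median ratios of dis3mtr and of mtr3-1 to mtr4-1 to 0.97 and 0.91. At a 1.5-fold threshold, mtr3-1 had 1 low gene, mtr4-1 had 2, and dis3mtr had 0 high and 1 low. Alternatives for the counts between mutants were chosen after seeing the data. Division by the library medians moved the higher count to 2 for dis3mtr against mtr3-1, to 1 for dis3mtr against mtr4-1 and to 1 for mtr3-1 against mtr4-1, where the lower count became 3. Division by the median ratio of the 2 libraries gave the same higher counts, 2, 1 and 1, and left the lower count of mtr3-1 against mtr4-1 at 1. At 1.5-fold the higher counts were 2, 2 and 1 and each lower count was 0. Shares of all features at 1.5-fold, with the pseudocount and, between mutants, after division are not given, so such counts describe the 6 genes only. The pseudocount moved the lower count of dis3mtr against mtr4-1 to 0. Of the 18 calls of single genes, 12 were kept after division: those that differ are RSC3, RSC4, RSC9 and SFH1 in mtr4-1 and RSC9 and SFH1 in dis3mtr. With the pseudocount 17 of the 18 were kept: SFH1 in mtr4-1 was no longer low, which left 3 low genes there. The mean and leaving out 1 gene moved no median against WT beyond the tolerance. No paired analysis was possible because each genotype has 1 library. No gene outside the authors' term tables bears on the scaling, and counting error is unknown.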
